A study of Homo sapiens with 12 samples.

Results

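Selenoproteins are proteins that carry selenocysteine, an amino acid with selenium in the place of the sulphur of cysteine. The 10 genes described here are PSTK, SEPSECS and SEPHS2, which make selenocysteine on its transfer RNA, SECISBP2, which directs it into proteins, and the selenoprotein genes SELENOP, SELENOH, SELENOW, SELENOM, SELENOK and SELENOS (the product of SEPHS2 is itself a selenoprotein). They were taken by gene symbol from 98711 genes listed for each sample, and each symbol matched 1 gene.

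The samples came from Huh7 and HepG2, 2 human liver cancer cell lines labelled as WT in genotype. Each line was sequenced as parental cells without treatment and as cells made resistant to sorafenib, a multikinase inhibitor used against liver cancer, with 3 samples in each of the 4 groups. The labels state that resistance was raised over 8 months, from a first dose of 10 μmol upward, with the surviving cells kept. How many clones survived, and whether the drug was present when RNA was taken, is not given in the sources used here. Nothing states that the 3 samples of a group were separate cultures, so the p-values measure the spread between these samples, which may be technical.

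Selenocysteine has no synthetase of its own. Its transfer RNA is first loaded with serine, PSTK phosphorylates the serine, and SEPSECS exchanges the phosphate for selenium taken from selenophosphate, the product of SEPHS2. The ribosome inserts selenocysteine at a UGA codon, which is otherwise a stop, when a stem-loop called the SECIS element lies in the untranslated 3′ part of the mRNA and SECISBP2 is bound to it. The liver secretes SELENOP, which carries selenium to other organs through the plasma.

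The codon on which this pathway acts is given here for the 7 selenoprotein genes among the members, since it is the feature that makes them dependent on the other 3. The windows were cut from spliced GENCODE release 29 transcripts (GRCh38) and hold 12 bases on each side of the codon. They are written 5′ to 3′ as DNA, with the selenocysteine codon in capitals. In the last window of SELENOP, the tga in lower case is also a selenocysteine codon, that of residue 376.

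SEPHS2: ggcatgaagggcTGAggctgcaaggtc
SELENOP, first of 10: cttcaagccagcTGAtacctgtgcata
SELENOP, last of 10: aaaaagtgagaaTGAccttcaaactaa
SELENOH: cattgcactagcTGAcgcgtctatggg
SELENOW: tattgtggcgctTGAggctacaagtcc
SELENOM: acctgcgggggaTGAcagctgaaccgc
SELENOK: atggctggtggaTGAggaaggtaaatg
SELENOS: tcatctggcggaTGAggctaagaatct

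The codon of SEPHS2 lies at chr16:30445548-30445550 on the minus strand and encodes residue 60 of 448. SELENOP, on the minus strand of chromosome 5, has 10 such codons, from residue 59 at chr5:42808177-42808179 to residue 378 of 381 at chr5:42800732-42800734. In SELENOH (chr11:57741816-57741818, plus strand, residue 44 of 122), SELENOW (chr19:47780732-47780734, plus strand, residue 13 of 87) and SELENOM (chr22:31105951-31105953, minus strand, residue 48 of 145) a cysteine codon stands 3 codons before it. SELENOK (chr3:53885831-53885833, minus strand) and SELENOS (chr15:101272777-101272779, minus strand) have it near their end, with 2 residues and 1 residue after it. PSTK, SEPSECS and SECISBP2 carry no selenocysteine codon in the annotation.

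The unit of the deposited values was not stated, and their pattern is that of FPKM, a read count scaled to exon length and to the reads of the library. Between 12290147 and 19285970 reads lay behind a sample, as recovered from the spacing of its values. In each line every resistant sample had more reads than every parental sample. Huh7 had 18972450 to 19285970 reads in resistant and 16158366 to 17944397 in parental samples. HepG2 had 16935600 to 18281834 reads in resistant and 12290147 to 15728871 in parental samples. The part of depth in the results was not tested. Differences were tested for each line with limma on log2(FPKM + 1), in genes that reached 1 FPKM in 3 or more of the 6 samples, two-sided and with Benjamini-Hochberg adjustment over all genes tested. A gene is said to have risen, fallen or been called at an adjusted p-value under 0.05. All 7 liver cell markers looked at (ALB, AFP, APOA1, APOB, TTR, SERPINA1 and HNF4A) had 1 FPKM or more in every sample. They summed to 4900 to 5020 FPKM in resistant and 7580 to 9370 FPKM in parental Huh7 cells, and to 3780 to 4060 FPKM in resistant and 4780 to 5900 FPKM in parental HepG2 cells. The 8 markers of leukocytes, endothelium and fibroblasts (PTPRC, CD3E, CD14, PECAM1, VWF, COL1A1, COL3A1 and DCN) summed to 4.86 to 5.89 FPKM in resistant and 2.8 to 4.44 FPKM in parental Huh7, and to 2.51 to 3.25 FPKM in resistant and 4.32 to 5.42 FPKM in parental HepG2. None of them was listed at 0 in all samples of a group. Of the liver markers, AFP, ALB and APOB fell and APOA1 and HNF4A rose in Huh7, and AFP and ALB fell in HepG2. AFP made up most of the difference of the Huh7 sums, with a mean of 5330 FPKM in parental and 2290 FPKM in resistant cells. Both sums differ between resistant and parental cells, and their part in the results was not tested. Low values in these tables need care. GPX1, an abundant glutathione peroxidase of liver cells, was listed at 0 to 0.221 FPKM (0 to 6 reads) in all groups, and RPL30, a ribosomal protein that also binds the SECIS element, at 0.454 to 1.54 FPKM. A low value is therefore reported as listed, and not as absence of expression.

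**Figure D1:**
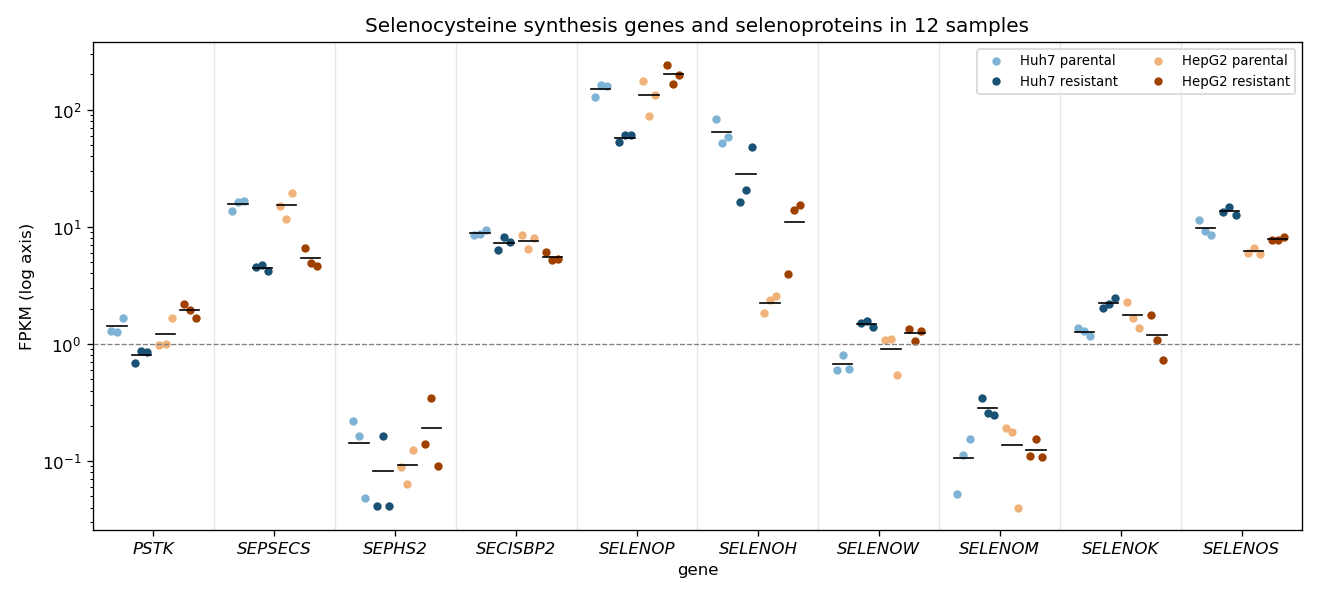
FPKM of the 10 genes (log axis) in the 12 samples, 1 point per sample, with the group mean as a black bar and 1 FPKM as a dashed line. SEPSECS was lower in both resistant groups (4.16 to 6.58 FPKM) than in both parental groups (11.6 to 19.3 FPKM), whereas SELENOP was lowest in resistant Huh7 cells and SEPHS2 and SELENOM stayed under 1 FPKM in every sample.

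In resistant Huh7 cells, SEPSECS, SELENOP, SELENOH and PSTK fell, and SELENOW, SELENOK and SELENOS rose. Of the 8 members that could be tested, 4 fell and 3 rose, in a comparison where 37.4% of all 12554 genes tested were lower and 32.7% were higher. SEPSECS, SELENOP and SELENOH also passed a log2 difference beyond 1, as did 22.6% of all genes tested. The samples of the resistant and parental groups did not overlap for 8 of the 8 tested members, against 74.5% of all genes tested. The median log2 difference was -0.33 over the tested members and -0.04 over all genes tested. PSTK met the 1 FPKM filter only through the parental samples and SELENOW only through the resistant samples, so that a difference of these genes was a condition of their being tested. With a filter of 10 reads in every sample in its place, 4 members again fell and 3 rose. In bulk samples, fewer cells with a transcript and less of it per cell cannot be told apart.

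HepG2 cells gave fewer calls. SEPSECS fell and SELENOH rose, and the other 6 tested members were not called. Among all 11762 genes tested in HepG2, 8.43% were lower and 11.6% higher. Of the genes called, 58% were higher, a share that was 43.5% with median-ratio scaling of the samples and 46.9% with the GC trend removed. Both members passed a log2 difference beyond 1, against 6.27% of all genes tested. Resistant and parental samples did not overlap for 5 of the 8 tested members and for 40.4% of all genes tested. The median difference was 0.27 over the tested members and 0.12 over all genes tested.

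**Figure D2:**
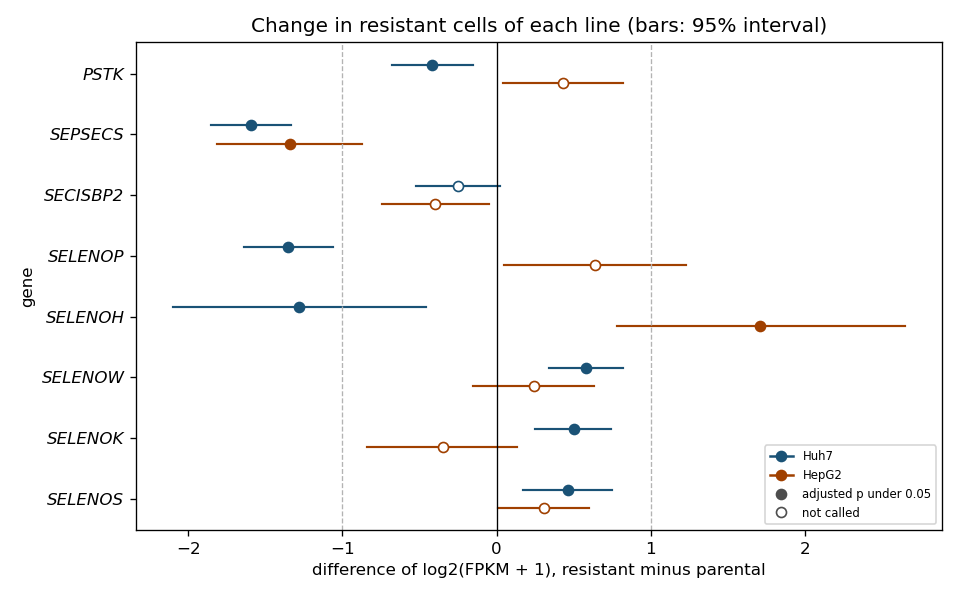
Difference of log2(FPKM + 1) between resistant and parental cells for the 8 tested genes in Huh7 and HepG2, with the 95% interval as a bar. Filled points have an adjusted p-value under 0.05, and dashed lines mark a log2 difference of 1. SEPSECS lies below 0 in both lines, at -1.59 and -1.34, and SELENOH on opposite sides, at -1.28 and 1.71.

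Of the synthesis genes, SEPSECS showed the clearest change. Its gene (ENSG00000109618) lies at chr4:25120014-25160442 on the minus strand. In parental Huh7 cells the 3 samples were at 13.6, 16.4 and 16.6 FPKM, and in resistant Huh7 cells at 4.53, 4.73 and 4.16 FPKM. HepG2 gave 14.9, 11.6 and 19.3 FPKM in parental and 6.58, 4.87 and 4.62 FPKM in resistant samples. In both lines every resistant sample was below every parental sample of either line. The mean went from 15.5 ± 1.66 to 4.47 ± 0.287 FPKM in Huh7 (SD, n = 3), 3.47-fold lower, and from 15.2 ± 3.86 to 5.36 ± 1.06 FPKM in HepG2, 2.85-fold lower. On the log2(FPKM + 1) scale the difference was -1.59 ± 0.11 (SE) in Huh7 (limma, adjusted p = 2.2e-05) and -1.34 ± 0.21 in HepG2 (adjusted p = 0.00417). The change in Huh7 minus that in HepG2 was -0.25 (95% interval -0.78 to 0.28, limma interaction, adjusted p = 0.397), so a difference between the lines was not detectable in this fit. The parental lines had a log2 difference of 0.05 (95% interval -0.33 to 0.42, adjusted p = 0.824). The paper lists SEPSECS in its medication decision signature. That signature was drawn in part from genes that differed between resistant and parental cells of this study, so the fall of SEPSECS here is not an independent result.

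In Huh7 the differences went with GC content, and the cause of this was not tested. Across genes, the log2 difference of resistant Huh7 cells rose with the GC content of the exons (Spearman's rho 0.63 over 12545 genes, which share libraries), and in HepG2 it hardly did (rho 0.03 over 11756 genes). Genes with 39% to 42% GC, where SEPSECS (40.3%) lies, had a median of -0.7 in Huh7 and of 0.14 in HepG2. With the GC trend of each sample removed, SEPSECS still fell, by 0.87 on the log2 scale in Huh7 (adjusted p = 6.4e-05) and by 1.46 in HepG2 (adjusted p = 0.00033). The interaction then changed sign to 0.55 and was called (adjusted p = 0.00656), with the smaller fall in Huh7.

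**Figure D3:**
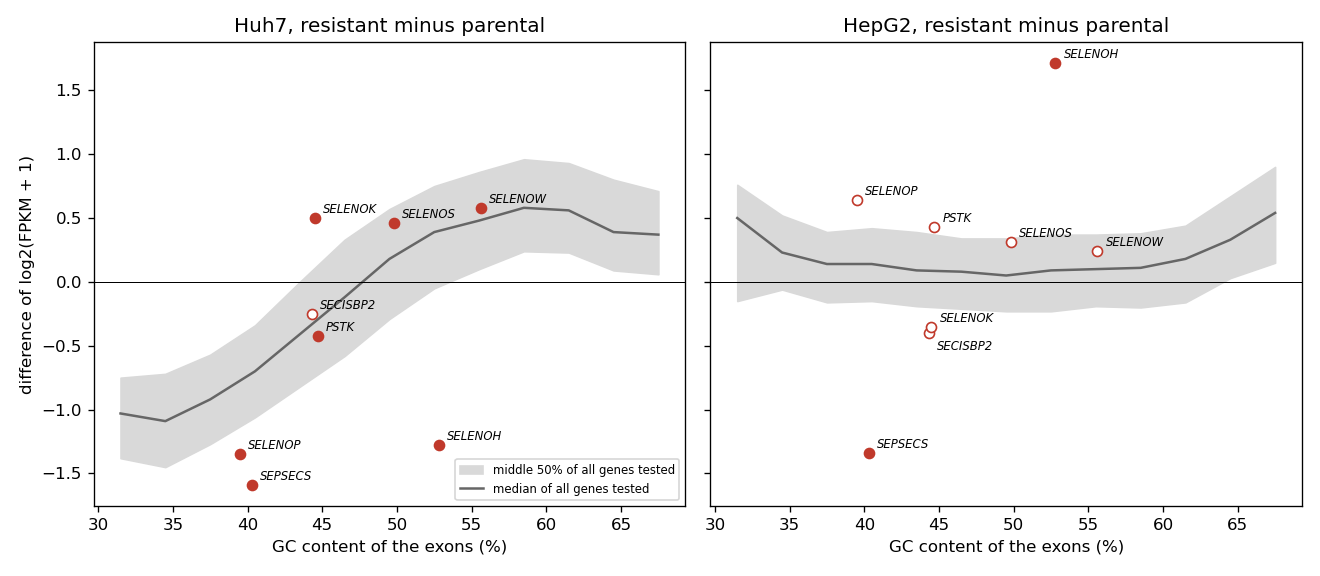
Difference of log2(FPKM + 1) between resistant and parental cells against the GC content of the exons, for the 8 tested genes (red, filled where called) and, in grey, the median and the middle 50% of all genes tested in 3% steps of GC. In Huh7 the grey median climbs from -1.09 at 33% to 36% GC to 0.58 at 57% to 60% GC. There SELENOW, PSTK, SELENOS and SECISBP2 lie within the band while SEPSECS, SELENOP, SELENOH and SELENOK lie outside it. In HepG2 the grey median stays between 0.05 and 0.54.

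PSTK (ENSG00000179988, chr10:122954381-122997513, plus strand), the kinase that acts before SEPSECS, was listed near 1 FPKM. Parental Huh7 samples had 1.28, 1.27 and 1.68 FPKM, and resistant Huh7 samples 0.689, 0.864 and 0.851 FPKM, on 80 to 166 reads. The groups did not overlap, and the log2 difference was -0.42 ± 0.12 (limma, adjusted p = 0.0112). In HepG2 the parental samples had 0.971, 0.997 and 1.65 FPKM and the resistant samples 2.2, 1.95 and 1.68 FPKM, a difference of 0.43 ± 0.17 that was not called (adjusted p = 0.111) although every resistant sample was above every parental one. The changes in the lines differed from each other by -0.84 (95% interval -1.25 to -0.43, adjusted p = 0.00282). With the GC trend removed the Huh7 difference was -0.14 and no longer called (adjusted p = 0.269), whereas the interaction, at -0.51, still was (adjusted p = 0.0188). PSTK overlaps IKZF5 over 6708 bases on the other strand, and IKZF5 was listed at no more than 0.251 FPKM. It also overlaps C10orf88 over 23 bases and NONHSAG106202.1, a non-coding gene, over 231 bases, both on the other strand. NONHSAG106202.1 was listed at 2.7 to 3.31 FPKM in parental and 1.27 to 1.91 FPKM in resistant Huh7 cells, the same direction as PSTK. In HepG2 it overlapped, at 2.56 to 5.54 FPKM in parental and 2.25 to 4.92 FPKM in resistant cells. The library kit named in the labels does not mark strand, so reads of genes on opposite strands cannot be told apart where these overlap.

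SEPHS2 (ENSG00000179918, chr16:30443631-30446181, minus strand), the selenophosphate synthetase, did not reach 1 FPKM in any sample. It was listed at 0.218, 0.163 and 0.0485 FPKM in parental and 0.0413, 0.163 and 0.0412 FPKM in resistant Huh7 cells, and at 0.0896, 0.0638 and 0.125 FPKM in parental and 0.139, 0.343 and 0.0911 FPKM in resistant HepG2 cells. These values rest on 2 to 16 reads, and the groups overlapped in both lines. The difference of log2(FPKM + 1) was -0.08 in Huh7 (exact permutation test, two-sided, p = 0.2) and 0.12 in HepG2 (exact p = 0.2). With 3 samples against 3 this test cannot give a p-value below 0.1, and a change of SEPHS2 was not detectable on so few reads. None of its 50-base stretches was found in a transcript of another gene.

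SECISBP2 (ENSG00000187742, chr9:89318506-89359662, plus strand), the SECIS-binding protein, had lower values in the resistant cells of both lines, and whether it was called depended on the fit. Huh7 had 8.47, 8.66 and 9.35 FPKM in parental and 6.28, 8.18 and 7.4 FPKM in resistant samples. HepG2 had 8.51, 6.4 and 7.99 FPKM in parental and 6.05, 5.2 and 5.35 FPKM in resistant samples. In neither line did the groups overlap. The log2 difference was -0.25 ± 0.12 in Huh7 (limma, adjusted p = 0.0849) and -0.4 ± 0.15 in HepG2 (adjusted p = 0.0956), and the interaction was 0.15 (95% interval -0.23 to 0.53, adjusted p = 0.493). Removal of the GC trend turned the Huh7 value to 0.07 (adjusted p = 0.395) and brought the HepG2 value of -0.47 past the threshold (adjusted p = 0.00917), with an interaction of 0.52 (adjusted p = 0.00255). SECISBP2 was also called in Huh7 by limma-voom (-0.35, adjusted p = 0.0239) and in HepG2 in a fit of all 12 samples (adjusted p = 0.029). Without resistant Huh7 sample 2 the Huh7 difference was -0.33 and called (adjusted p = 0.0395).

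SELENOP (ENSG00000250722, chr5:42799880-42887392, minus strand), the secreted selenium carrier, had the highest level per length of the 10 members in each of the 4 groups. Parental Huh7 samples had 128, 162 and 158 FPKM, and resistant Huh7 samples 52.9, 60.1 and 60.1 FPKM. The mean fell 2.59-fold, from 149 ± 18.7 to 57.7 ± 4.2 FPKM (SD, n = 3), with no overlap. The log2 difference was -1.35 ± 0.13 (limma, adjusted p = 6.5e-05). HepG2 cells had 176, 87.9 and 134 FPKM in parental and 242, 166 and 196 FPKM in resistant samples. The HepG2 groups overlapped, since the first parental sample was above the second resistant one, and the difference of 0.64 ± 0.26 was not called (adjusted p = 0.114). It was called in a fit of all 12 samples (adjusted p = 0.0424) and by limma-voom on reads (0.66, adjusted p = 0.0446), as was the difference of PSTK in HepG2 (adjusted p = 0.0343, and 0.72 with adjusted p = 0.0465). The parental lines did not differ detectably (log2 difference 0.22, 95% interval -0.27 to 0.71, adjusted p = 0.405), whereas the changes upon resistance differed by -1.99 (95% interval -2.68 to -1.3, adjusted p = 0.00036). At 39.5% GC, SELENOP still fell in Huh7 with the GC trend removed, by 0.55 on the log2 scale (adjusted p = 0.00148), a smaller difference by more than 1.5 times. SELENOP shares 2481 bases with CCDC152 on the opposite strand, and 23.4% of the 50-base stretches of its transcripts are also found there. CCDC152 was listed at 4.81 to 6.07 FPKM in parental and 1.66 to 2.13 FPKM in resistant Huh7 cells, and at 2.7 to 4.08 FPKM in parental and 4.51 to 6.95 FPKM in resistant HepG2 cells. Both genes thus had lower values in resistant Huh7 cells. In resistant HepG2 cells CCDC152 was higher without overlap, and SELENOP had a higher mean with overlap. Over all other genes, 32.7% of the 50-base stretches of SELENOP were shared. The share of reads that belongs to each gene was not tested.

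SELENOH (ENSG00000211450, chr11:57741250-57743554, plus strand) encodes a small nuclear selenoprotein that binds DNA. It was the member that differed most between the lines. Parental Huh7 samples had 83.4, 51.9 and 58.3 FPKM and parental HepG2 samples 1.82, 2.37 and 2.54 FPKM. The parental means of 64.5 ± 16.6 and 2.24 ± 0.376 FPKM (SD, n = 3) differed 28.8-fold, and the log2 difference was 4.32 ± 0.45 (limma, adjusted p = 5.9e-06). In resistant Huh7 cells the samples had 16.3, 20.6 and 48.2 FPKM. All 3 were below the parental samples, but the third was close to the lowest of them. The log2 difference in Huh7 was -1.28 ± 0.36 (adjusted p = 0.0117), and without a filter on low values it was no longer called (adjusted p = 0.0502). Resistant HepG2 samples had 3.95, 13.8 and 15.2 FPKM, all above the parental ones, with a mean of 11 ± 6.14 FPKM and a log2 difference of 1.71 ± 0.41 (adjusted p = 0.0222). This call was lost without resistant sample 2 (1.47, adjusted p = 0.0539), resistant sample 3 (1.41, adjusted p = 0.062) or parental sample 1 (1.62, adjusted p = 0.0808), as well as with no filter on low values (adjusted p = 0.0868). The change in Huh7 minus that in HepG2 was -3 ± 0.64 (95% interval -4.4 to -1.59, adjusted p = 0.00225). Removal of the GC trend (52.8% GC) kept both directions and both calls, at -1.65 in Huh7 (adjusted p = 0.00714) and 1.65 in HepG2 (adjusted p = 0.0177). AP001931.1 lies over SELENOH on the same strand and shares 6.41% of its 50-base stretches. It was listed at 3.17 to 8.64 FPKM in Huh7 and 1.31 to 2.1 FPKM in HepG2, with overlapping resistant and parental samples in each line.

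SELENOW and SELENOM encode small selenoproteins of the thioredoxin-like fold. SELENOW (ENSG00000178980, chr19:47778572-47784686, plus strand) was listed at 0.604, 0.801 and 0.612 FPKM in parental and at 1.52, 1.57 and 1.39 FPKM in resistant Huh7 cells. The resistant mean was 2.22-fold higher, on 52 to 159 reads per sample, and the log2 difference was 0.58 ± 0.11 (limma, adjusted p = 0.00135). HepG2 samples had 1.07, 1.1 and 0.544 FPKM as parental and 1.34, 1.06 and 1.3 FPKM as resistant cells. These overlapped, and the difference of 0.24 ± 0.17 was not called (adjusted p = 0.34). The interaction was 0.34 (95% interval -0.05 to 0.72, adjusted p = 0.124), but without parental HepG2 sample 3 it was 0.48 and called (adjusted p = 0.0133), and so was the difference between the parental lines, at -0.32 (adjusted p = 0.019). SELENOW has 55.6% GC, and genes with 54% to 57% GC had a median of 0.48 in Huh7. With the GC trend removed the Huh7 difference of SELENOW was 0.09 and not called (adjusted p = 0.558).

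SELENOM (ENSG00000198832, chr22:31104772-31120069, minus strand), a selenoprotein of the endoplasmic reticulum, did not reach the filter. Huh7 cells had 0.0525, 0.112 and 0.155 FPKM as parental and 0.347, 0.26 and 0.248 FPKM as resistant cells, on 3 to 21 reads, and the groups did not overlap. The difference of log2(FPKM + 1) was 0.22, at the smallest p-value this design allows (exact permutation test, two-sided, p = 0.1). In HepG2 the parental samples had 0.191, 0.179 and 0.0399 FPKM and the resistant samples 0.111, 0.154 and 0.109 FPKM, a difference of -0.01 (exact p = 0.9).

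SELENOK and SELENOS encode membrane proteins of the endoplasmic reticulum, with functions in the disposal of misfolded proteins, and both rose in resistant Huh7 cells. SELENOK (ENSG00000113811, chr3:53884410-53891988, minus strand) had 1.36, 1.29 and 1.17 FPKM in parental and 2.02, 2.18 and 2.45 FPKM in resistant Huh7 samples, with no overlap. Its log2 difference was 0.5 ± 0.11 (limma, adjusted p = 0.00315). In HepG2, parental samples had 2.29, 1.65 and 1.38 FPKM and resistant samples 1.77, 1.09 and 0.725 FPKM. These overlapped, with a difference of -0.35 ± 0.21 (adjusted p = 0.266). The changes differed between the lines by 0.85 (95% interval 0.33 to 1.37, adjusted p = 0.0099). SELENOK has 44.5% GC, and genes with 42% to 45% GC had a median of -0.41 in Huh7. Its rise in Huh7 was 0.8 with the GC trend removed (adjusted p = 0.000473), larger than before by over 1.5 times. A processed pseudogene, SELENOKP1, shares 1.82% of its 50-base stretches.

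SELENOS (ENSG00000131871, chr15:101270817-101277500, minus strand) had higher values in the resistant cells of both lines. In Huh7 it went from 11.4, 9.21 and 8.51 FPKM in parental to 13.4, 14.8 and 12.7 FPKM in resistant samples, a log2 difference of 0.46 ± 0.13 (limma, adjusted p = 0.0112). In HepG2 it had 5.93, 6.63 and 5.89 FPKM in parental and 7.71, 7.68 and 8.13 FPKM in resistant samples. The HepG2 groups did not overlap either, but the difference of 0.31 ± 0.13 was not called (adjusted p = 0.122). The interaction was 0.15 (95% interval -0.2 to 0.5, adjusted p = 0.435). With the GC trend removed, the difference was called in both lines, at 0.28 in Huh7 (adjusted p = 0.0217) and 0.26 in HepG2 (adjusted p = 0.0371). Adding a replicate block to that fit gave an adjusted p of 0.0698 in HepG2, so that SELENOS was no longer called there. Parental Huh7 cells had 1.58-fold more SELENOS than parental HepG2 cells (log2 difference 0.57 ± 0.11, adjusted p = 0.000758).

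SELENOP, SELENOH, PSTK and SELENOK, 4 of the 8 tested members, therefore changed differently in the lines, in a comparison where 56.3% of all 13800 genes tested were called. The median of all genes in the interaction was -0.155, and -0.026 with median-ratio scaling of the samples, under which the same number of members was called in each direction. With the GC trend removed 6 members were called, SEPSECS and SECISBP2 being added, with 3 values above 0 and 3 below. Between the parental lines, SELENOH and SELENOS were called, both higher in Huh7. Of all genes tested, 39.8% were higher in parental Huh7 and 27.4% lower.

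The other 18 human selenoprotein genes were examined as a list. In Huh7, 13 of them were tested, of which 5 rose and 3 fell, with a median log2 difference of 0.15, where 32.7% of all genes tested were higher and 37.4% lower. Of these, MSRB1, GPX3 and DIO1 met the filter only through the group in which they were higher, so that a difference was a condition of their being tested and the count is given as a description. In HepG2, 12 were tested, of which 1 rose and 2 fell, with a median of 0.12, where 11.6% of all genes tested were higher and 8.43% lower. GPX2, a glutathione peroxidase of epithelial cells, had the largest difference of the list. It was at 23.6 ± 3.6 FPKM in parental and 266 ± 37.3 FPKM in resistant Huh7 cells (SD, n = 3), 11.3-fold higher (log2 difference 3.44 ± 0.15, adjusted p = 4.5e-06). In HepG2 it fell from 343 ± 25.9 to 182 ± 22 FPKM (-0.92 ± 0.15, adjusted p = 0.00536). TXNRD1, the cytosolic thioredoxin reductase, also moved in opposite directions, from 14.1 ± 2.3 to 24.3 ± 3.29 FPKM in Huh7 (adjusted p = 0.00211) and from 23.1 ± 2.07 to 10.8 ± 0.476 FPKM in HepG2 (adjusted p = 0.00192). MSRB1, a methionine sulphoxide reductase, was at 0.661 to 0.982 FPKM in parental and 2.14 to 3.8 FPKM in resistant Huh7 cells, a log2 difference of 1.1 ± 0.17 (adjusted p = 0.000552), and did not pass the filter in HepG2. GPX4, which reduces lipid peroxides, went from 27.1 ± 3.25 to 62.2 ± 26.6 FPKM in HepG2, a difference of 1.07 ± 0.31 that was called (adjusted p = 0.0457) but lost when any 1 sample other than resistant sample 1 was left out (adjusted p from 0.0687 to 0.132). It was also lost without a filter (0.135), with a pseudocount of 0.1 (0.051) and with upper-quartile (0.0576) or median-ratio scaling (0.0652). In Huh7 its value was -0.29 ± 0.22 (adjusted p = 0.272).

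**Figure D4:**
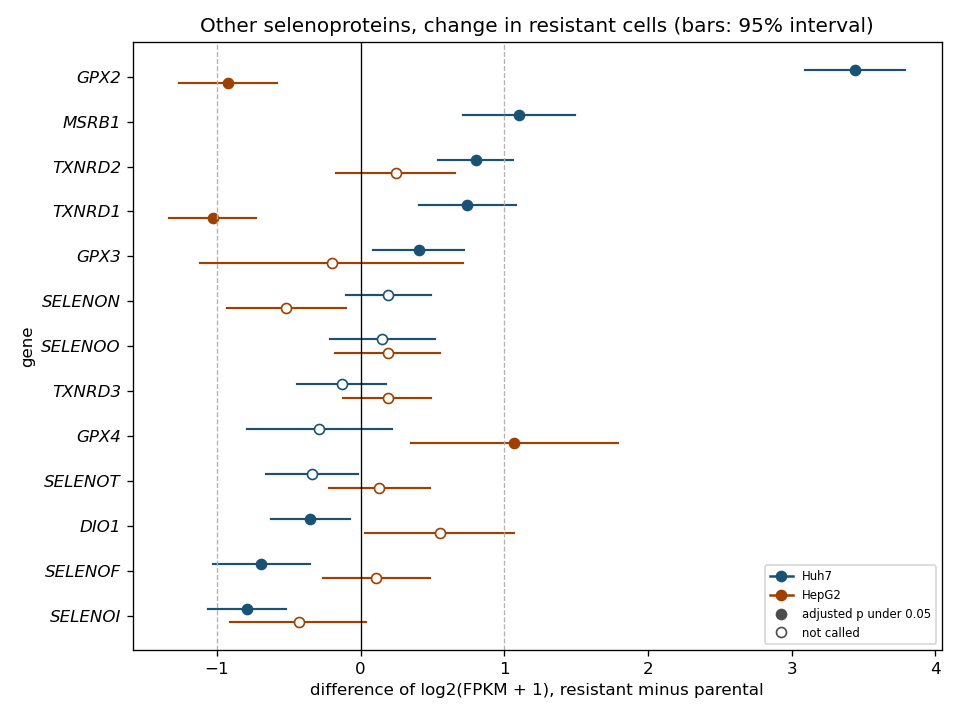
Difference of log2(FPKM + 1) between resistant and parental cells for the 13 other selenoprotein genes tested in Huh7, of which 12 were tested in HepG2, with 95% intervals as bars and filled points where the adjusted p-value was under 0.05. GPX2 lies at 3.44 in Huh7 and -0.92 in HepG2, and TXNRD1 at 0.74 and -1.03.

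The sum of the FPKM of all 25 selenoprotein genes was compared as a measure of their mRNA per length. It includes genes whose low values need care, such as GPX1 at 0 to 0.221 FPKM. The sum and the shares therefore hold only for the values as listed. The sum was 451 ± 20.5 in parental and 552 ± 53.9 in resistant Huh7 cells, and 670 ± 27.8 in parental and 602 ± 7.33 in resistant HepG2 cells (SD, n = 3). Its make-up shifted further than its size. SELENOP made up 33.2 ± 4.81% of it in parental Huh7 and 10.5 ± 1.34% in resistant Huh7, while GPX2 went from 5.22 ± 0.604% to 48.1 ± 4.12%. In HepG2 the order was the other way round, with SELENOP at 19.6 ± 5.77% in parental and 33.5 ± 6.72% in resistant cells and GPX2 at 51.4 ± 5.9% and 30.2 ± 3.42%. The resistant and parental samples did not overlap in any of these 3 quantities in either line. For each, the exact permutation test gave p = 0.1 (two-sided), the smallest possible with 3 samples against 3. Groups also did not overlap for 74.5% of all genes tested in Huh7 and 40.4% in HepG2. GPX2 had the largest difference of its list in these same data, so its share is given as a description. The shares are parts of the same sum and so depend on each other. In HepG2 the FPKM of SELENOP itself overlapped, at 87.9 to 176 in parental and 166 to 242 in resistant samples.

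**Figure D5:**
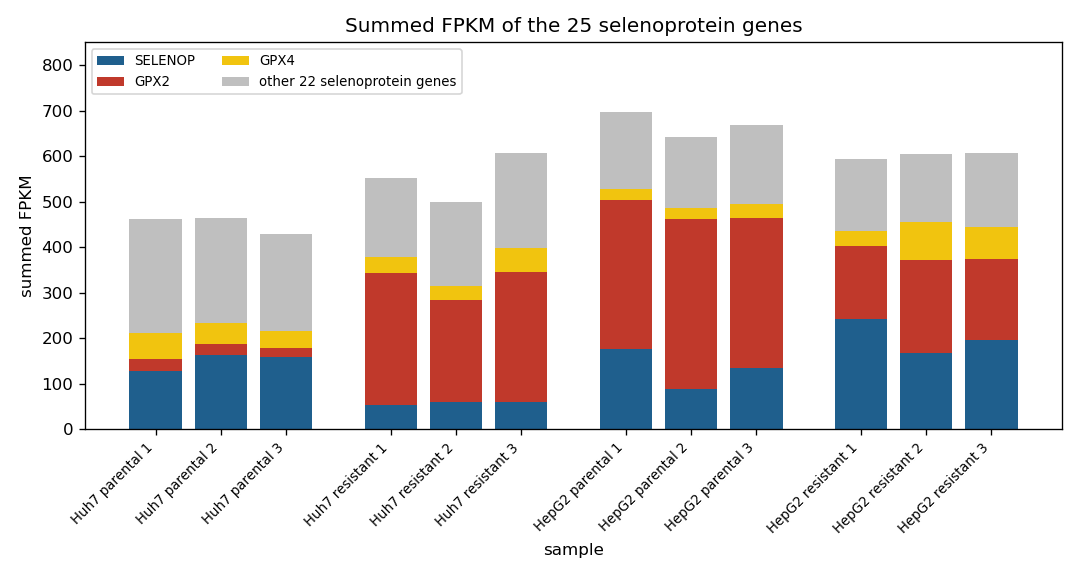
Summed FPKM of the 25 selenoprotein genes in each of the 12 samples, stacked from SELENOP, GPX2, GPX4 and the remaining genes. In Huh7 the GPX2 part grows from 5.22% to 48.1% of the bar and the SELENOP part shrinks from 33.2% to 10.5% (group means), and in HepG2 the GPX2 part shrinks from 51.4% to 30.2%.

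Among 10 other factors of selenocysteine synthesis and insertion, 3 rose and 3 fell in Huh7 (median log2 difference 0.09; all genes tested 32.7% higher and 37.4% lower), and 0 rose and 2 fell in HepG2 (median -0.04; all genes tested 11.6% higher and 8.43% lower). At an unadjusted p under 0.05 in limma, 2 were higher and 3 lower in HepG2, and limma-voom called 1 higher and 2 lower. RPL30, 1 of the 2 higher genes in limma, met the 1 FPKM filter in both lines only through the resistant samples. In HepG2 it was at 1.27 to 1.54 FPKM in resistant and 0.454 to 0.884 FPKM in parental samples. A difference was a condition of its being tested, so the counts of this list are given as a description. SARS, the seryl-tRNA synthetase that loads the transfer RNA before PSTK acts, went from 16.5 ± 0.935 to 23 ± 1.13 FPKM in Huh7 (0.45 ± 0.1, limma, adjusted p = 0.00327) and from 107 ± 16 to 48.1 ± 5.72 FPKM in HepG2 (-1.13 ± 0.16, adjusted p = 0.00297). SECISBP2L, a relative of SECISBP2, fell in Huh7 from 9.3 ± 1.29 to 2.95 ± 0.275 FPKM (-1.38 ± 0.13, adjusted p = 5.4e-05) and was at 3.17 ± 0.553 and 3.24 ± 0.811 FPKM in parental and resistant HepG2. ALKBH8, which modifies the anticodon of the transfer RNA, fell in Huh7 by 0.64 ± 0.11 (adjusted p = 0.000804), and with the GC trend removed its difference was -0.02 (adjusted p = 0.822). TRNAU1AP, a protein associated with that transfer RNA, fell in HepG2 by 0.55 ± 0.16 (adjusted p = 0.0406), a call that was lost when any 1 sample other than parental sample 3 was left out (adjusted p from 0.0561 to 0.188) and without a filter (0.106).

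Of 6 genes of selenium supply, 4 rose and 1 fell in Huh7 (median log2 difference 0.46), where 32.7% of all genes tested were higher and 37.4% lower, and 0 of the 5 tested were called in HepG2 (median 0.17), also at an unadjusted p under 0.05 in limma and by limma-voom, where 11.6% of all genes tested were higher and 8.43% lower. LRP2, an uptake receptor for SELENOP, fell in Huh7 from 7.16 ± 0.23 to 2.88 ± 0.199 FPKM (-1.07 ± 0.1, limma, adjusted p = 6.3e-05) and was at no more than 0.0901 FPKM in HepG2. SELENBP1, a selenium-binding protein, rose in Huh7 by 0.9 ± 0.11 (adjusted p = 0.000179) and PRDX6, a peroxiredoxin that takes part in selenium transfer, by 0.81 ± 0.15 (adjusted p = 0.00164). LRP1, a relative of LRP2, rose by 0.47 ± 0.15 (adjusted p = 0.018). Its call was lost with any 1 of 4 samples left out, namely resistant sample 1 or 3 or parental sample 2 or 3 (adjusted p from 0.0518 to 0.0658), and with the GC trend removed its value was -0.08 (adjusted p = 0.313).

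The partners of SELENOK and SELENOS in the degradation of proteins from the endoplasmic reticulum were listed with 9 genes. In Huh7, 7 were tested, of which 4 rose and 3 fell (median log2 difference 0.51), beside 32.7% higher and 37.4% lower of all genes tested. In HepG2, 0 of 7 were called (median 0.15), beside 11.6% higher and 8.43% lower of all genes tested. SEL1L alone was higher there at an unadjusted p under 0.05 in limma, and limma-voom called it. VCP, the ATPase that pulls proteins out of the membrane and binds SELENOS, rose in Huh7 from 78.9 ± 11 to 183 ± 15.1 FPKM (1.21 ± 0.13, limma, adjusted p = 0.000122). SEL1L, the scaffold of a ubiquitin ligase complex, fell from 20.8 ± 2.5 to 6.99 ± 1.06 FPKM (-1.45 ± 0.13, adjusted p = 5.7e-05). ZDHHC6, the acyltransferase that works with SELENOK, fell by 0.67 ± 0.14 (adjusted p = 0.00274), and its difference was -0.16 with the GC trend removed (adjusted p = 0.193).

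Genes whose 4 group means followed those of SEPSECS or SELENOP most closely were looked for among 10688 genes tested in both lines, by the root mean square distance of their centred means of log2(FPKM + 1). Nearest to SEPSECS were ERV3-1 (distance 0.093), AC016559.1 (0.14) and SNORD13E (0.149). ERV3-1 had 14.3 and 4.26 FPKM in parental and resistant Huh7 and 13.3 and 5.6 FPKM in parental and resistant HepG2. Nearest to SELENOP were FAM208A (0.0525), EFCAB13 (0.0613) and SLC5A9 (0.0636), and FAM208A had 11.6 and 4.12 FPKM in Huh7 and 9.3 and 15.7 FPKM in HepG2, in the same order of groups.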

How the data were processed

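RNA from the 4 groups was sequenced, with 3 samples each, grouped and numbered by the sample labels. The labels name the RNeasy kit and the paper's methods another reagent. The submitters' processing notes name bcl2fastq and GRCh38, and the aligner and quantification tool are not given in the sources used here. The deposited tables were read as FPKM made by the authors, because with GENCODE 29 exon lengths 96.3% to 96.5% of the values of up to 2000 reads lie within 0.05 of a whole number of reads. RPKM would look the same.

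Genes with Ensembl identifiers (27249) were tested with limma 3.58.1 (R 4.3.3), with a trend on mean expression, on log2(FPKM + 1), a scale that understates changes of low genes. The filter asked for 1 FPKM in 3 or more samples, and members under it had exact permutation tests (scipy 1.17.1). The interaction and the parental contrast used all 12 samples. Members, lists and tests were chosen with earlier results of these data known. Values are given for all 10 members and, of each other list, for the 4 genes with the largest difference among those called in either line, 1 of which is not reported here. Alternatives were a pseudocount of 0.1, other filters, scaling by upper quartile or median ratio, limma without the trend, limma-voom on reads recovered from the FPKM, all 12 samples in 1 fit, a replicate block, removal of each sample's GC trend (lowess, span 0.3) and leaving out each sample. Codons and their windows came from GENCODE 29.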

Additional observations from a re-analysis of the deposited data

Results flagged for a closer look

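These results differed between the lines in the interaction of cell line and resistance (limma, all 12 samples, adjusted p under 0.05). The change in Huh7 minus the change in HepG2, on the log2(FPKM + 1) scale, was -3 for SELENOH, -1.99 for SELENOP, -0.84 for PSTK and 0.85 for SELENOK. Among the other genes named, it was 4.36 for GPX2 (adjusted p = 2e-07), 1.78 for TXNRD1, 1.03 for MSRB1 and -1.36 for GPX4 of the selenoproteins. Of the synthesis factors it was 1.58 for SARS, -1.39 for SECISBP2L, -0.96 for ALKBH8 and 0.47 for TRNAU1AP. For the selenium supply genes LRP2, PRDX6 and LRP1 it was -1.06, 0.78 and 0.64, and for the partners SEL1L, VCP and ZDHHC6 it was -1.96, 1.15 and -0.94. With the GC trend removed, the Huh7 changes of ALKBH8, LRP1 and ZDHHC6 were -0.02, -0.08 and -0.16 and were not called. Interactions in that fit are not reported here for genes other than the members. LRP2 was listed at no more than 0.0901 FPKM in HepG2, where it could hardly move on this scale, so that its value repeats the change in Huh7. MSRB1 did not pass the filter in HepG2 and met that of the 12 samples only with resistant Huh7, where it was highest (2.14 to 3.8 FPKM). A difference was thus a condition of its being tested, and its value is given as a description. Of all genes tested, 56.3% were called in this comparison.

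NONHSAG084661.1, a non-coding gene from the NONCODE part of the tables that was not tested, overlaps SELENOK on the opposite strand. It was listed at 0.692 to 0.766 FPKM in resistant Huh7 cells, above all parental samples (0.135 to 0.3 FPKM). Its levels in resistant and parental HepG2 cells overlapped (0.199 to 0.932 and 0.592 to 0.694 FPKM), and the share of SELENOK reads behind it was not tested.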

How the results depend on the processing

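Over 618 values of members under alternatives, 571 kept their direction and their side of the threshold, 9 lost the call, 19 gained it and 19 changed sign. In Huh7 the number of called members stayed between 5 and 8, and between 6 and 7 with a sample left out. With no filter, SELENOM was called there (adjusted p = 0.0183) and SELENOH was not. PSTK failed the 1 FPKM filter without any parental Huh7 sample and SELENOW without any resistant one, so that these fits give no value for them. In HepG2 the number of 2 called members became 1 with no filter, 4 with limma-voom on reads or with the GC trend removed, and 5 with all 12 samples in 1 fit or with the GC trend removed with replicate block. It was 1 to 2 with a sample left out, and 1 without resistant sample 2 or 3 or parental sample 1. Between the parental lines, 4 members in place of 2 were called with the GC trend removed, with or without the replicate block. With the replicate block alone, 7 members were called in Huh7, 3 in HepG2, where SELENOP was added (0.64, adjusted p = 0.0204), 4 in the interaction and 2 between the parental lines. The numbers were not taken to pair the samples, since same-numbered samples did not deviate together in every pair (correlations from -0.198 to 0.073 in Huh7 and from -0.011 to 0.394 in HepG2), and not every sample correlated best with its own number.

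In the interaction 6 members were called with the GC trend removed, with or without the block. With a pseudocount of 0.1 the differences of the low genes were larger, at -0.74 for PSTK and 1.05 for SELENOW in Huh7 and at -1.41 for PSTK and 1.34 for SELENOK in the interaction. The sign turned with the GC trend removed, with or without the replicate block, for SECISBP2 in Huh7 (0.07), for SEPSECS (0.55) and SELENOW (-0.03) in the interaction, and between the parental lines for SEPSECS (-0.35), PSTK (-0.03), SELENOP (-0.22) and SELENOW (0). Between these lines SEPSECS was also at -0.03 with upper-quartile and -0.09 with median-ratio scaling. With a sample left out it ranged from -0.12 to 0.22 and SELENOP from -0.05 to 0.45. Of all genes in HepG2, 1366 were called higher and 991 lower, against 857 and 765 with no filter, 2380 and 1508 with all 12 samples in 1 fit, 2111 and 1307 with the replicate block, 1897 and 2150 with the GC trend removed and 1941 and 2134 with both of these. Beyond a log2 difference of 1, 1079 were higher and 1759 lower in Huh7, against 706 and 731 with the GC trend removed and 1427 and 2849 with limma-voom. The cause of these changes was not tested. SEPHS2 and SELENOM rested on 2 to 21 reads in a sample, and SELENOK, SELENOW and PSTK on 27 to 228, which limits what could be detected for them.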
